A study of Mus musculus with 18 samples.

Results

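Expression of 10 genes that report glucose supply and the hypoxia response was followed in mouse embryonic fibroblasts (MEFs) whose serum was exchanged. The genes were taken by name as 1 set: Txnip and Arrdc4 as glucose-sensing genes, and Slc2a1, Hk2, Pfkfb3, Ldha, Pdk1, Vegfa, Bnip3 and Egln3 as glycolytic genes and targets of the hypoxia-inducible factors (HIFs). They are 10 of the 55487 genes in the count table. All 10 passed the filter on low counts, as did 15381 genes in all. The study cultured MEFs in complete medium made with either of 2 kinds of fetal bovine serum, one in which the cells were sensitive to ferroptosis (S-FBS, giving the medium Scm) and one in which they were resistant (R-FBS, giving Rcm), and asked how the transcriptome followed an exchange of the medium. There were 6 groups of 3 RNA-seq libraries: Scm and Rcm denote cells held in 1 medium, S-Rcm denotes Scm cells that were given Rcm and R-Scm the reverse, and the exchanged cells were sampled 12 h and 24 h after the change. All groups were the same wild-type cells under the name MEFs, handled as a cell line, without a transgene or drug. No labelled group received fresh medium of its own kind, so that the renewal of the medium and the change of serum cannot be told apart within 1 exchange. The labels do not say whether the 3 libraries of a group came from separate cultures, the study's methods speak of independent replicates for its cell culture work in general, and p-values measure the spread between these libraries, which may be technical.

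Txnip and Arrdc4 are alpha-arrestins whose transcription is driven by the glucose-sensing pair MondoA and Mlx, and Txnip restrains glucose uptake. Under hypoxia or when prolyl hydroxylation is blocked, HIF escapes degradation and raises genes of glucose uptake and glycolysis together with angiogenic and mitophagy genes, including Egln3, one of the prolyl hydroxylases that mark HIF for removal. Both arms respond in cultured fibroblasts to what is left in the medium, the first to hexose phosphates and the second to oxygen at the cell layer.

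The regulatory sequence just upstream of the start is shown for Egln3, the only 1 of the 10 genes that passed the test in any comparison, and for the glucose-sensing pair, because Txnip and Arrdc4 carry different arrangements of the E-box-like element. The sequences are the 250 bases before the RefSeq start in GRCm38.p6, 5′ to 3′ on the gene's strand. Capitals mark the letters ACGTG or GCGTG (the HIF core), CACGTG (the E-box) and paired E-box-like elements, read on either strand. The paired element was searched as CACGNG, 5 free bases and then CACGNG or CNCGTG, and an E-box always holds a HIF core. The window of Egln3 (gene at chr12:54178981-54203860) is chr12:54203875-54204124 on the minus strand, that of Txnip (gene at chr3:96557957-96561883) is chr3:96557707-96557956 on the plus strand and that of Arrdc4 (gene at chr7:68736995-68749241) is chr7:68749239-68749488 on the minus strand.
Egln3: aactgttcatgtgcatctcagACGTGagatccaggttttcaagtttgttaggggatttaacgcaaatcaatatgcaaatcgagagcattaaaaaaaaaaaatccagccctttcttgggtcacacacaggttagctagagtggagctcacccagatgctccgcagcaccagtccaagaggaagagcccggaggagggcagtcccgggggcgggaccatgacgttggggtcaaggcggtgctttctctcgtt
Txnip: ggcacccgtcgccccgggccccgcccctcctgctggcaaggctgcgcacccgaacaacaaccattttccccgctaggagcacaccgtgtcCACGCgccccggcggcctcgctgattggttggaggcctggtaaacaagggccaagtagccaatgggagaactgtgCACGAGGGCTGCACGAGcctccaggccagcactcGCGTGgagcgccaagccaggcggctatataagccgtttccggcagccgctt
Arrdc4: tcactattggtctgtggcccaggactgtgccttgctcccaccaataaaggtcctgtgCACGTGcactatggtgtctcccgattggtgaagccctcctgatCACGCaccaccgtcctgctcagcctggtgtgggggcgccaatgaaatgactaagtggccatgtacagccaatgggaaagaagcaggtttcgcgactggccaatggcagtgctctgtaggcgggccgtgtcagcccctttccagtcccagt

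The Txnip window held the paired elements, beginning 85 bases before the start, and was the only window of the 10 genes to do so. Of 32851 upstream windows of the same length in the RefSeq table, 21 held that arrangement (0.0639%). The E-box was found upstream of at least 1 listed start of 4 of the 10 genes (Arrdc4, Pfkfb3, Ldha and Bnip3) and in 6.02% of all windows. A HIF core was present upstream of at least 1 listed start of 10 of 10 genes, and in 38.6% of all windows. Pfkfb3, Ldha, Pdk1 and Vegfa had 2 listed starts each, so the counts per gene are not like for like with the shares per window. These matches describe letters within the window and are not binding sites.

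The libraries held 14534906 to 20313715 counts, and the cells carried fibroblast RNA throughout. The 6 fibroblast markers (Col1a1, Col1a2, Col3a1, Pdgfrb, Vim and Thy1) summed to between 6292 and 9820 CPM (counts scaled to a common library size), whereas 9 markers of epithelial, endothelial, blood and muscle cells summed to 5 to 30 counts per library (0.311 to 1.84 CPM). Adgre1, Myod1 and Myog had no count in any library. Between replicates, spread exceeded counting error for each of the 10 genes: the coefficient of variation within groups was 6.05% (Pdk1) to 31.2% (Pfkfb3), against 0.838% (Ldha) to 10.6% (Arrdc4) from counting alone. The R-Scm 24 h group was the most uneven, and its replicate 1 stood apart from the other two. The comparisons with Rcm share the Rcm libraries and those with Scm share the Scm libraries, so they are not independent of each other.

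Levels of the 10 genes differed widely when set per kilobase of exon. Ldha, which converts pyruvate to lactate, was the most abundant with a mean of 254.7 CPM per kilobase over the 18 libraries. Slc2a1, the basal glucose transporter, followed at 35.7, Txnip at 11.1 and Egln3 at 9.76 CPM per kilobase. Bnip3 (5.78), Vegfa (5.68), Hk2 (5.45) and Pdk1 (3.91) lay close together, and Arrdc4 (1.32) and Pfkfb3 (0.817) were lowest on this scale. Across the 6 groups the ratio of the highest to the lowest group mean ran from 1.15 for Pdk1 and 1.199 for Ldha to 1.66 for Pfkfb3 and 1.96 for Egln3.

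**Figure D1:**
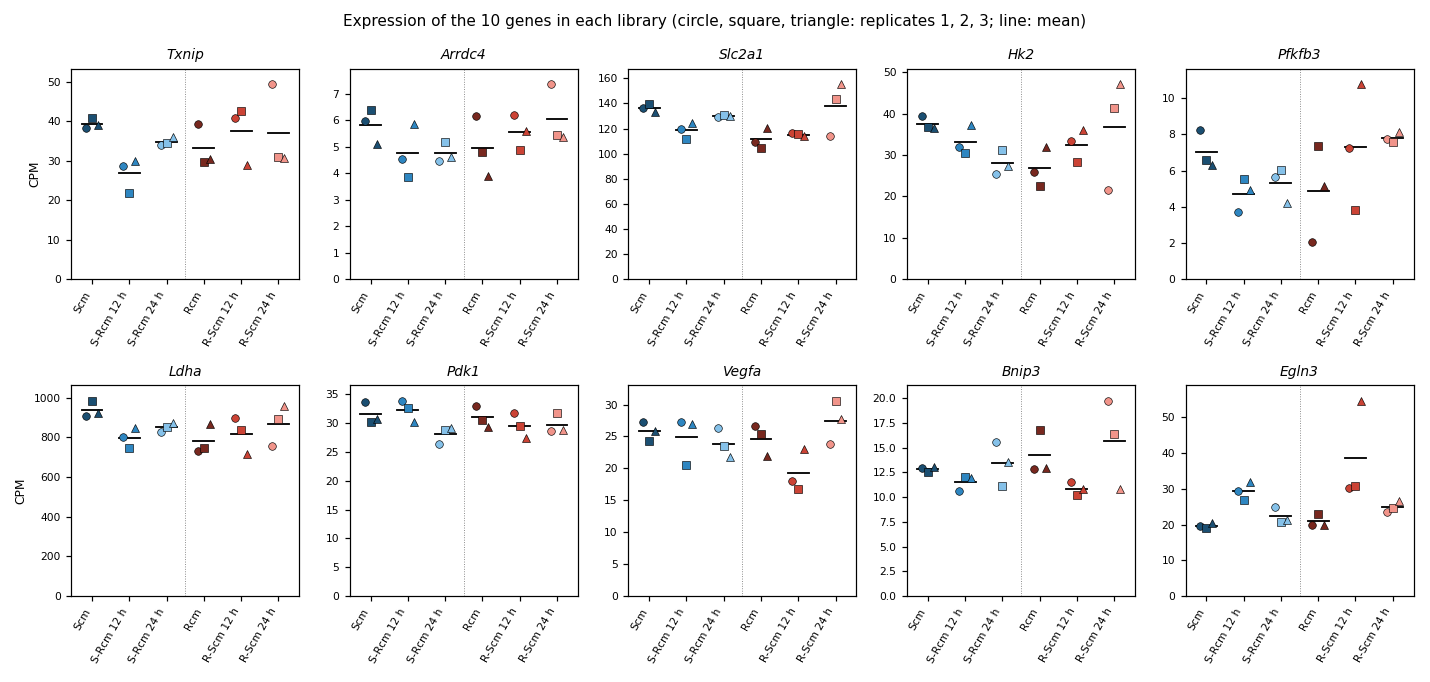
CPM of each of the 10 genes (y axis, from 0) in the 18 libraries by group (x axis); circles, squares and triangles are replicates 1, 2 and 3 and lines are group means. Egln3 is higher in both 12 h groups than in Scm and Rcm, with replicate 3 of R-Scm 12 h at 54.6 CPM. Slc2a1, Hk2 and Ldha are lower in Rcm than in Scm without overlap and are no DEGs. In that comparison 23.9% of all genes did not overlap, in either direction.

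Egln3 was the only 1 of the 10 genes called as a differentially expressed gene (DEG), and it was higher 12 h after the exchange from Rcm to Scm. Its levels were 19.6, 19.0 and 20.5 CPM in Scm and 19.8, 23.0 and 20.0 CPM in Rcm. At 12 h they were 29.4, 27.0 and 31.9 CPM in S-Rcm and 30.2, 30.7 and 54.6 CPM in R-Scm. At 24 h they were 25.0, 20.7 and 21.3 CPM in S-Rcm and 23.6, 24.5 and 26.5 CPM in R-Scm. Every library of both 12 h groups was above every library of Scm and Rcm, and replicate 3 of R-Scm 12 h stood far above the other two. Egln3 is a HIF prolyl hydroxylase and is itself a HIF target.

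In R-Scm 12 h against Rcm the log2 fold change of Egln3 was 0.88 (SE 0.18, 95% interval 0.51 to 1.25), with an adjusted p of 0.00761 by edgeR's quasi-likelihood test with Benjamini-Hochberg adjustment over 15381 genes. A DEG was a gene with an adjusted p under 0.05 and a log2 fold change beyond 0.58 in either direction. By that rule 1 of the 10 genes was a DEG in this comparison, against 2.74% of all genes tested (1.51% higher). The call rested in part on replicate 3 of R-Scm 12 h: without it the log2 fold change was 0.55 (adjusted p = 0.0183, edgeR), below the fold threshold. Fitted on the 2 groups alone it was 0.89 with an adjusted p of 0.123 (edgeR).

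In the opposite exchange, S-Rcm 12 h against Scm, Egln3 had a log2 fold change of 0.58 (SE 0.18, interval 0.21 to 0.95, adjusted p = 0.127, edgeR) and was no DEG, although the libraries did not overlap. The 2 exchanges were not shown to differ at 12 h: the difference between them was 0.30 (interval -0.22 to 0.83, adjusted p = 0.647, edgeR), and its sign turned (-0.03) without replicate 3 of R-Scm 12 h. The mean of both exchanges at 12 h, a comparison added after the values were seen, was 0.73 (SE 0.12, interval 0.47 to 0.99, adjusted p = 0.00335, edgeR). It was a DEG there, against 1.51% of all genes, and without the same library the value was 0.56 (adjusted p = 0.00104, edgeR), under the fold threshold.

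By 24 h Egln3 was nearer to its level in unexchanged cells. The log2 fold change was 0.25 (interval -0.12 to 0.62) in R-Scm 24 h against Rcm and 0.18 (interval -0.19 to 0.56) in S-Rcm 24 h against Scm. From 12 h to 24 h the change was -0.63 in R-Scm (interval -0.998 to -0.260, adjusted p = 0.105, edgeR) and -0.40 in S-Rcm (interval -0.77 to -0.03, adjusted p = 0.495, edgeR). In both series each 24 h library lay below each 12 h library, and neither difference passed the test. The order of the group means was R-Scm 12 h (38.6), S-Rcm 12 h (29.4), R-Scm 24 h (24.9), S-Rcm 24 h (22.3), Rcm (20.9) and Scm (19.7 CPM). Libraries of the 2 groups at 12 h overlapped, those of S-Rcm 24 h overlapped those of R-Scm 24 h and Rcm, and those of Rcm overlapped those of Scm.

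Neither gene of the glucose-sensing pair was a DEG in any comparison, by edgeR or DESeq2. Txnip stood at 38.4, 40.9 and 38.9 CPM in Scm and at 39.3, 29.7 and 30.4 CPM in Rcm. After the exchange to Rcm it was 28.7, 21.8 and 30.0 CPM at 12 h and 34.0, 34.4 and 36.0 CPM at 24 h. After the exchange to Scm it was 40.7, 42.6 and 28.9 CPM at 12 h and 49.4, 30.8 and 30.7 CPM at 24 h. The S-Rcm libraries at both times were below all 3 Scm libraries, and 1 library in each of Rcm, R-Scm 12 h and R-Scm 24 h departed from the other two.

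For Txnip in S-Rcm 12 h against Scm the log2 fold change was -0.55 (SE 0.19, interval -0.95 to -0.16, adjusted p = 0.172, edgeR), and at 24 h it was -0.18 (interval -0.57 to 0.21). In R-Scm 12 h against Rcm it was 0.18 (interval -0.22 to 0.57). The difference between the exchanges at 12 h was 0.73 (SE 0.26, interval 0.17 to 1.29, unadjusted p = 0.0132, adjusted p = 0.186, edgeR), which does not pass over all genes.

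Arrdc4, the second alpha-arrestin under the same control, was low and gave 69 to 125 counts per library. Its levels were 5.99, 6.37 and 5.08 CPM in Scm and 6.17, 4.79 and 3.91 CPM in Rcm. They were 4.54, 3.86 and 5.85 CPM in S-Rcm 12 h and 4.45, 5.19 and 4.61 CPM in S-Rcm 24 h. The R-Scm libraries held 6.18, 4.88 and 5.57 CPM at 12 h and 7.36, 5.42 and 5.35 CPM at 24 h. Libraries of Arrdc4 overlapped in each of the 7 comparisons of 2 groups.

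Its log2 fold changes were -0.29 in both S-Rcm 12 h and S-Rcm 24 h against Scm (intervals -0.72 to 0.13 and -0.72 to 0.14) and 0.17 and 0.29 in R-Scm 12 h and 24 h against Rcm. As with Txnip, each was negative after the move to Rcm and positive after the move to Scm. For Txnip the value in R-Scm 24 h against Rcm, 0.16, turned to -0.11 in 1 of the fits that left out 1 library. The 4 intervals reached past the fold threshold, so that a change of that size was neither shown nor excluded for Arrdc4.

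Slc2a1, Hk2 and Ldha, genes of glucose uptake and glycolysis, were lower in Rcm than in Scm in small steps, none of which passed the test. For Slc2a1 the values were 136.6, 139.8 and 133.0 CPM in Scm and 109.7, 104.4 and 120.8 CPM in Rcm, which is -0.29 on the log2 scale (SE 0.10, interval -0.49 to -0.09, adjusted p = 0.133, edgeR). Hk2, the inducible hexokinase, was at 39.4, 36.9 and 36.5 CPM in Scm and at 25.9, 22.5 and 32.1 CPM in Rcm, with a log2 fold change of -0.49 (SE 0.21, interval -0.93 to -0.04, adjusted p = 0.267, edgeR). Ldha was at 907.5, 982.7 and 922.3 CPM in Scm and at 732.2, 744.6 and 868.8 CPM in Rcm, which gave -0.26 (SE 0.10, interval -0.48 to -0.05, adjusted p = 0.211, edgeR). For these 3 genes the groups did not overlap, as for 23.9% of all genes tested in this comparison, and the share of DEGs over all genes was 2.3%.

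Of the other genes in this comparison, Pfkfb3 (-0.54, interval -1.32 to 0.23), Txnip (-0.25) and Arrdc4 (-0.23) were also negative. Pdk1 was at -0.03 (interval -0.22 to 0.17) and Vegfa at -0.07 (interval -0.37 to 0.24), whereas Bnip3 and Egln3 were positive at 0.15 and 0.09. Over the 10 genes the median was -0.24 on the log2 scale, beside 0.01 over all genes. By DESeq2 none of the 10 was a DEG either, and 3 had an unadjusted p under 0.05 (edgeR). Intervals of 6 of the 10 genes lay within the fold threshold on both sides.

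**Figure D2:**
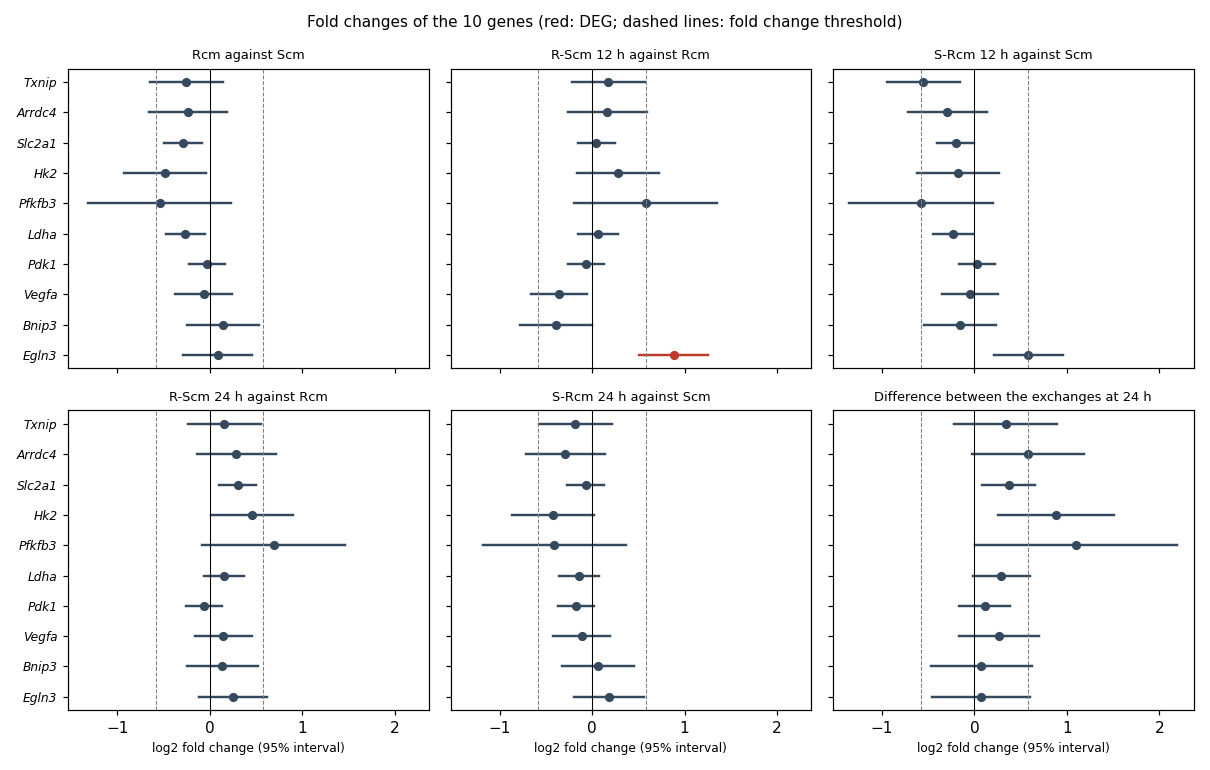
Log2 fold change (x axis, points) with its 95% interval (bars) of each of the 10 genes (rows) in 6 comparisons (panels); dashed lines mark 0.58 in either direction and red marks a DEG. Only Egln3 in R-Scm 12 h against Rcm is red, at 0.88, and in the difference between the exchanges at 24 h all 10 points are above 0.

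After the exchange to Rcm the libraries of Slc2a1, Pfkfb3 and Ldha lay below every Scm library at 12 h and at 24 h, again without a DEG. At 12 h Hk2 overlapped with Scm (log2 fold change -0.18) and Pdk1 was at 0.03. In S-Rcm 12 h Slc2a1 was at 119.9, 112.0 and 124.2 CPM and Ldha at 799.1, 745.1 and 845.7 CPM, both below every Scm library. The log2 fold changes were -0.20 for Slc2a1 (interval -0.40 to 0.00, adjusted p = 0.351, edgeR) and -0.23 for Ldha (interval -0.45 to -0.02, adjusted p = 0.300, edgeR). Pfkfb3, which makes the allosteric activator of phosphofructokinase, was at 3.72, 5.54 and 4.91 CPM against 8.23, 6.58 and 6.32 CPM in Scm, with a log2 fold change of -0.58 (interval -1.35 to 0.20).

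Counted over the 10 genes, 6 did not overlap between S-Rcm 12 h and Scm (5 lower and Egln3 higher), against 26.4% of all genes, and the median log2 fold change was -0.19 beside 0.02 over all genes. The DEG share over all genes was 0.858%. At 24 h of S-Rcm, 7 of the 10 did not overlap with Scm (6 lower, Egln3 higher), against 19.5% of all genes, with a median of -0.15 beside 0.01 and a DEG share of 0.338% over all genes. At an unadjusted p under 0.05 there were 3 of the 10 genes at 12 h and 0 at 24 h (edgeR), and DESeq2 called 0 at both times. The 6 lower genes were Txnip, Slc2a1, Hk2, Pfkfb3, Ldha and Pdk1. The largest of them in size was Hk2, at 25.5, 31.2 and 27.4 CPM, with -0.43 (interval -0.87 to 0.02, adjusted p = 0.639, edgeR). From S-Rcm 12 h to 24 h no gene of the 10 was a DEG, against 0.156% of all genes (2 at an unadjusted p under 0.05 by edgeR, 0 by DESeq2), and 4 did not overlap, against 17.2% of all genes.

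After the exchange to Scm the log2 fold changes of these genes were positive, with no DEG. At 12 h the log2 fold changes against Rcm were 0.05 for Slc2a1, 0.28 for Hk2, 0.58 for Pfkfb3 and 0.06 for Ldha, and the intervals all held 0. At 24 h Slc2a1 was at 113.9, 143.9 and 155.4 CPM (0.30, interval 0.10 to 0.50, adjusted p = 0.215, edgeR). Hk2 was at 21.5, 41.5 and 47.2 CPM (0.45, interval 0.01 to 0.90, adjusted p = 0.468, edgeR). In both genes replicate 1 was within or below the range of Rcm and the other 2 libraries were above it.

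Replicate 1 of R-Scm 24 h decided the call of Hk2. Without it Hk2 had a log2 fold change of 0.72 (adjusted p = 0.00959, edgeR) and was a DEG, and Slc2a1 had 0.42 (adjusted p = 0.00541, edgeR), below the fold threshold. The same library held the lowest Slc2a1, Hk2, Ldha and Vegfa of its group and the highest Txnip (49.4 CPM), Arrdc4 (7.36 CPM) and Bnip3 (19.7 CPM). It also held 713.2 CPM of the fibroblast collagen Col3a1, where the other 2 libraries held 199.5 and 222.7 CPM. The part of that library's composition in these values was not tested.

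Pfkfb3 was at 7.77, 7.57 and 8.15 CPM in R-Scm 24 h against 2.06, 7.38 and 5.13 CPM in Rcm, without overlap, at a log2 fold change of 0.69 (interval -0.08 to 1.46, adjusted p = 0.551, edgeR). It gave 33 to 176 counts per library, and without replicate 1 of Rcm the value was 0.33. In R-Scm 24 h against Rcm no gene of the 10 was a DEG by edgeR or DESeq2, against 0.377% of all genes (2 had an unadjusted p under 0.05, edgeR), and 2 (Pfkfb3 and Egln3) did not overlap, against 11.2% of all genes. The median of the 10 genes was 0.21 beside 0.00 over all genes.

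The 2 exchanges were compared directly as the difference of their fold changes. At 24 h this difference was positive for 10 of 10 genes, with a median of 0.32 beside -0.01 over all genes, and 0 of the 10 were DEGs by edgeR or DESeq2, against 1.37% of all genes (3 had an unadjusted p under 0.05, edgeR). The largest values were 1.10 for Pfkfb3 (SE 0.52, interval 0.01 to 2.19, adjusted p = 0.391, edgeR) and 0.88 for Hk2 (SE 0.30, interval 0.25 to 1.51, adjusted p = 0.188, edgeR). Without replicate 1 of R-Scm 24 h the difference for Hk2 was 1.15 (adjusted p = 0.00224, edgeR) and passed. Because the 10 genes were measured in the same 12 libraries, their shared sign is not 10 independent observations. The difference, at 24 h as at 12 h, also holds the Rcm and Scm libraries, so their own difference enters it. In Rcm against Scm 8 of the 10 genes were negative, with a median of -0.24, which makes the difference between the exchanges more positive.

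At 12 h the difference was positive for 7 and negative for 3 of the 10 genes, with a median of 0.30 beside -0.03, and 0 of 10 were DEGs by edgeR or DESeq2, against 2.03% of all genes (2 had an unadjusted p under 0.05, edgeR). Pfkfb3 had 1.16 (interval 0.07 to 2.26, adjusted p = 0.304, edgeR). Vegfa (-0.31), Bnip3 (-0.23) and Pdk1 (-0.10) were the negative ones. The mean of both exchanges at 24 h, added after the values were seen, lay between -0.12 (Pdk1) and 0.22 (Egln3) for the 10 genes, with 9 of 10 intervals inside the fold threshold and no DEG by edgeR or DESeq2, against 0.026% of all genes (0 had an unadjusted p under 0.05, edgeR).

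By group mean, the HIF targets outside glycolysis did not follow Egln3. Vegfa, the angiogenic growth factor, was at 27.3, 24.3 and 25.9 CPM in Scm and at 26.7, 25.5 and 21.9 CPM in Rcm. In R-Scm it was 17.99, 16.8 and 23.1 CPM at 12 h and 23.8, 30.6 and 27.8 CPM at 24 h, and in S-Rcm it ranged from 20.6 to 27.3 CPM. The lowest 2 libraries of the 18 were both R-Scm 12 h, in the group where Egln3 was highest. In those 2 libraries Egln3 was at 30.2 and 30.7 CPM. Replicate 3 of that group held its highest Egln3 (54.6 CPM) and also its highest Vegfa (23.1 CPM).

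In R-Scm 12 h against Rcm Vegfa had a log2 fold change of -0.36 (SE 0.14, interval -0.66 to -0.05, adjusted p = 0.195, edgeR). From R-Scm 12 h to R-Scm 24 h it was 0.51 (SE 0.14, interval 0.20 to 0.81, adjusted p = 0.118, edgeR), and every 24 h library was above every 12 h library. Without replicate 1 of R-Scm 24 h that value was 0.60 with an adjusted p of 0.0487 (edgeR) and passed. Over the 10 genes, 0 were DEGs from R-Scm 12 h to 24 h by edgeR (4 had an unadjusted p under 0.05) and 1 by DESeq2 (Egln3), against 0.774% of all genes, and 2 did not overlap (Vegfa and Egln3), against 15.2% of all genes.

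Bnip3, a mitophagy receptor, was at 12.8, 16.8 and 12.99 CPM in Rcm and at 11.5, 10.2 and 10.8 CPM in R-Scm 12 h. The groups did not overlap, and the log2 fold change was -0.39 (SE 0.18, interval -0.78 to 0.00, adjusted p = 0.284, edgeR). In that comparison Bnip3 and Egln3 were the 2 of 10 genes without overlap, against 23.4% of all genes. Scm and S-Rcm libraries of Bnip3 ranged from 10.6 to 15.5 CPM.

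Pdk1, the kinase that shuts pyruvate dehydrogenase, was the steadiest of the 10 genes. It ranged from 26.4 to 33.9 CPM over the 18 libraries, and its intervals lay within the fold threshold in 5 of 5 comparisons of the study. The largest fold change among them was -0.17 in S-Rcm 24 h against Scm (interval -0.37 to 0.02).

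Reads of Ldha and Bnip3 could be shared with near-identical copies. A copy had at least 90% identity, over at least 100 bases for an annotated pseudogene and at least 500 bases for any other gene. Ldha had 25 copies in the annotation, and their counts came to 2.53% to 4.89% of its own. Bnip3 had 5 copies, chief among them the lincRNA AC160336.1 on chromosome 14, with counts of 6.86% to 27.4% of its own. How reads that fit several places were counted is not given in the sources used here, so both levels are uncertain, and reads dropped for matching several places would not show in these shares. Gapdh, a glycolytic enzyme gene with many processed pseudogenes, had group means of only 16.5 to 23.5 CPM in these counts, where those of Pkm, the pyruvate kinase gene, were 2982 to 3712 CPM. Whether reads of Gapdh, Ldha or Bnip3 were dropped in this way was not tested. Adding the copies gave -0.38 for Bnip3 in R-Scm 12 h against Rcm and -0.25 for Ldha in Rcm against Scm. Antisense genes overlap exons of Txnip (Gm15441, 0 to 11 counts), Slc2a1 (Gm12868, 0 to 2 counts) and Bnip3 (Gm45507, 0 counts), and without a stated strand setting their reads cannot be told apart from those of the sense gene.

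The rest of the glycolytic pathway held no DEG. Of 18 further genes of glucose entry, glycolysis and lactate export, 18 were tested and 0 passed in any of the 11 comparisons by edgeR or DESeq2, and 0 to 4 had an unadjusted p under 0.05 (edgeR). Their median on the log2 scale was -0.12 in Rcm against Scm (12 of 18 negative). It was -0.06 at 12 h and 0.07 at 24 h of R-Scm against Rcm, and -0.02 at 12 h and -0.12 at 24 h of S-Rcm against Scm. The nearest to a call was Eno2, the neuronal-type enolase, at -0.55 in R-Scm 12 h against Rcm (SE 0.14, adjusted p = 0.0334, edgeR), below the fold threshold. The HIF subunits and regulators Hif1a, Arnt, Vhl, Egln1, Egln2 and Hif1an were all measured, with 0 of 6 DEGs by edgeR or DESeq2 in any comparison (at most 1 with an unadjusted p under 0.05, edgeR), while Epas1 and Hif3a did not pass the filter on low counts.

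Among 18 tested genes of a list of 19 other HIF targets, DEGs ran in both directions by edgeR. By DESeq2 but not edgeR, Lox was higher in Rcm against Scm (0.79, adjusted p = 0.0253, DESeq2). The same held for Bhlhe40 in R-Scm 24 h against R-Scm 12 h (0.69, adjusted p = 0.00836, DESeq2). In these 2 comparisons DESeq2 called 484 and 231 of 29856 genes. Ndrg1, a stress-induced gene of the HIF programme, was at 101.4, 101.9 and 91.6 CPM in Scm and at 69.5, 70.3 and 76.6 CPM in Rcm. At 12 h it was 50.3, 47.4 and 47.9 CPM in S-Rcm and 56.4, 53.6 and 59.2 CPM in R-Scm. At 24 h it was 77.5, 64.7 and 67.4 CPM in S-Rcm and 95.9, 81.6 and 84.4 CPM in R-Scm. The 6 libraries at 12 h were the lowest of the 18, and the 12 h groups in which Egln3 was highest were those in which Ndrg1 was lowest.

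Ndrg1 fell by 1.02 on the log2 scale in S-Rcm 12 h against Scm (SE 0.09, adjusted p = 1.91e-05, edgeR) and rose by 0.63 from R-Scm 12 h to R-Scm 24 h (SE 0.09, adjusted p = 0.00395, edgeR), although without replicate 1 of R-Scm 24 h the latter was 0.56. With the R-Scm groups fitted alone that rise was 0.64 with an adjusted p of 0.21 (edgeR) and was no DEG. In R-Scm 12 h against Rcm Ndrg1 was at -0.36 (adjusted p = 0.0323, edgeR), below the fold threshold. The mean of both exchanges at 12 h was -0.69 for Ndrg1 (SE 0.06, adjusted p = 2.6e-05, edgeR), where that of Egln3 was 0.73. Both comparisons use the same libraries.

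Ddit4, an inhibitor of mTORC1, fell by 0.76 in R-Scm 12 h against Rcm (SE 0.18, adjusted p = 0.0218, edgeR), from 18.3, 21.8 and 27.7 CPM to 14.6, 12.6 and 12.9 CPM. Adm, the vasodilator peptide adrenomedullin, rose by 1.77 in Rcm against Scm (SE 0.45, adjusted p = 0.043, edgeR), from 0.855, 0.554 and 0.412 CPM to 2.68, 1.99 and 1.73 CPM. Adm gave 6 to 83 counts per library, and its call was lost in 5 of 6 fits that left out 1 library, that of Ddit4 in 4 of 6. The call of Ddit4 was also lost with its compared groups fitted alone (adjusted p = 0.0819, edgeR). The relatives Vegfb and Vegfc, which are not classical hypoxia genes, were DEGs in opposite directions in R-Scm 12 h against Rcm, at -0.59 (adjusted p = 0.0122, edgeR) and 0.70 (adjusted p = 0.0303, edgeR). These were 2 of 15 tested paralogs of the 10 genes, where 2.74% of all genes were DEGs. Without replicate 3 of R-Scm 12 h neither was a DEG (-0.55 and 0.47), nor was either with the 2 groups fitted alone (adjusted p = 0.0622 and 0.134, edgeR).

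**Figure D3:**
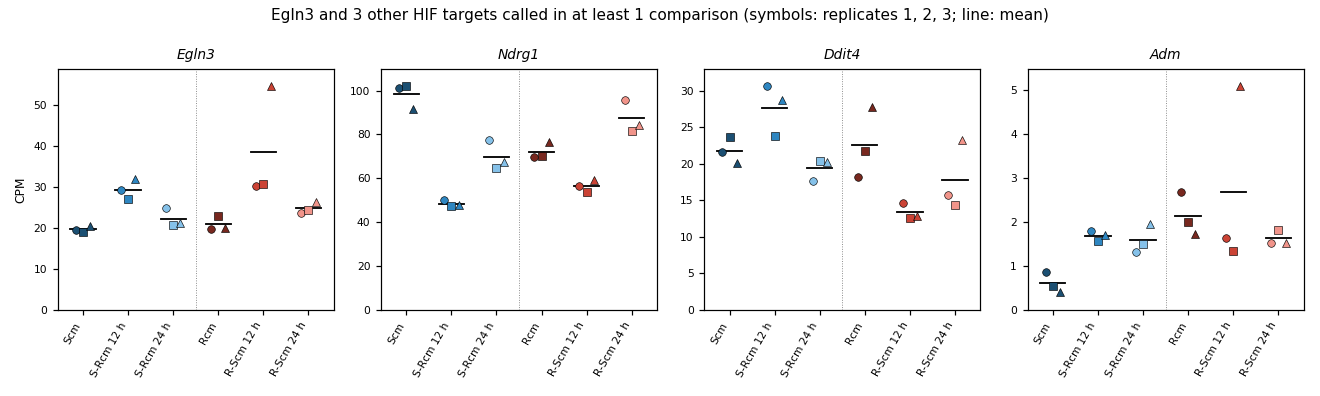
CPM (y axis, from 0) of Egln3, Ndrg1, Ddit4 and Adm in the 18 libraries by group (x axis); symbols are replicates 1, 2 and 3 and lines are group means. Egln3 is highest and Ndrg1 lowest in the 12 h groups, and replicate 3 of R-Scm 12 h is highest for Egln3 (54.6 CPM) and Adm (5.08 CPM).

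On the glucose-sensing side, 6 of 8 further genes (the MondoA partners and other arrestins) were tested. The transcripts of MondoA (Mlxip) and Mlx were no DEGs in any comparison (edgeR), and Mlxipl had no count in any library. Klf10, a glucose-induced transcriptional repressor, differed between the exchanges at 24 h by 1.01 (SE 0.24, adjusted p = 0.0494, edgeR). It was at 80.4, 78.3 and 79.0 CPM in Scm, at 59.7, 45.3 and 47.7 CPM in S-Rcm 24 h, at 53.3, 56.9 and 50.1 CPM in Rcm and at 55.5, 76.1 and 75.4 CPM in R-Scm 24 h. The call sat close to the threshold and was lost in 10 of 12 fits that left out 1 library. By DESeq2 but not edgeR it was also a DEG against Scm, at -0.58 in Rcm and at -0.64 in S-Rcm 24 h (adjusted p = 0.0336 and 0.0345, DESeq2).

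Arrdc3, another alpha-arrestin, was called by DESeq2 alone, as lower in R-Scm 24 h. Its levels were 44.7, 49.4 and 38.5 CPM in Rcm, 40.5, 45.03 and 33.7 CPM in R-Scm 12 h and 23.5, 21.8 and 13.5 CPM in R-Scm 24 h. The R-Scm 24 h libraries lay below those of both other groups without overlap. Against Rcm the log2 fold change at 24 h was -1.18 by edgeR (SE 0.27, interval -1.75 to -0.60, adjusted p = 0.0667) and -1.16 by DESeq2 (adjusted p = 0.0031). Against R-Scm 12 h it was -1.02 (adjusted p = 0.0867 by edgeR and 0.0124 by DESeq2). In R-Scm 24 h against Rcm Txnip was at 0.16 (interval -0.23 to 0.55) and Arrdc4 at 0.29 (interval -0.13 to 0.71), so neither had a clear direction there.

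Replicate 3 of R-Scm 12 h, which raised the mean of Egln3, was also the highest library of its group for Pfkfb3 (10.8 CPM against 7.27 and 3.80), Adm (5.08 CPM against 1.64 and 1.34), Klf10 (83.1 CPM against 53.5 and 47.4) and Vegfc (27.3 CPM against 18.4 and 17.3). The same held for Vegfa (23.1 CPM against 17.99 and 16.8) and Hk2 (36.1 CPM against 33.4 and 28.2), whereas its Txnip, Slc2a1, Ldha and Pdk1 were the lowest of its group. It held the highest count of the endothelial marker Cdh5, 18 counts or 1.10 CPM, while Pecam1 was at 4 counts or fewer in all 18 libraries. Among the fibroblast markers, Pdgfrb fell by 0.72 in R-Scm 12 h against Rcm and Thy1 rose by 0.71 in S-Rcm 12 h against Scm (adjusted p = 0.0394 and 0.00657, edgeR). The call of Pdgfrb was lost in 6 of 6 fits that left out 1 library (adjusted p 0.0837 to 0.121, edgeR) and with no filter on low counts (0.063), whereas that of Thy1 was kept in 6 of 6. Their part in the values of Egln3 was not tested.

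The genes whose pattern over the 18 libraries lay nearest to that of Egln3 were S1pr1, St3gal1, Abcb1b, Btg2 and Plk2. The distance, the root mean square difference of centred log2 CPM, was 0.16 to 0.18 for them, against a median of 0.43 over 13534 genes. In R-Scm 12 h against Rcm the group means were 59.7 against 34.6 CPM for S1pr1, a sphingosine phosphate receptor, and 613.1 against 373.9 CPM for Plk2, a polo-like kinase. For Pfkfb3 the nearest were Ppp1r15a, Foxn2, Oxct1, Skil and Fhdc1, at 0.31 to 0.40 against a median of 0.58. Egln3 and Pfkfb3 were the genes with the widest range of group means, and the nearest genes were chosen in the same libraries, so the likeness is a description.

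**Figure D4:**
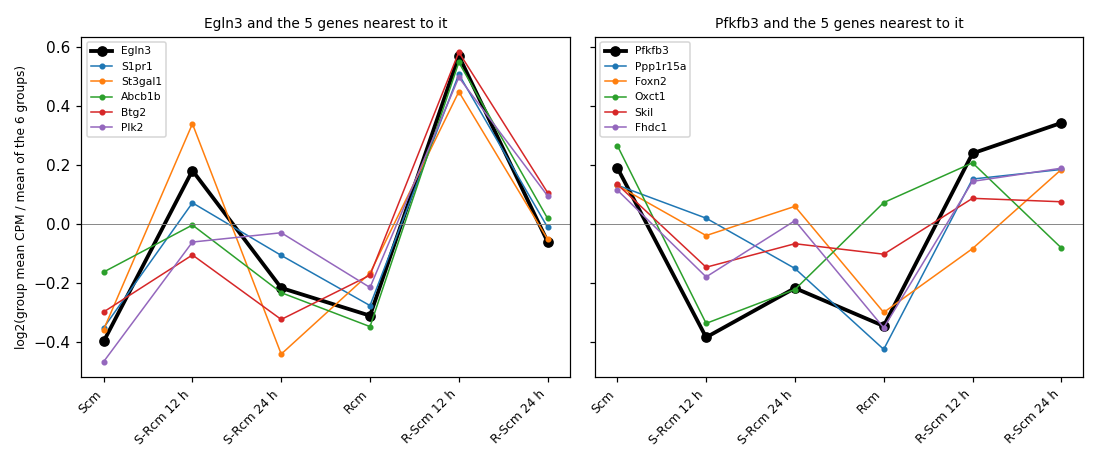
Log2 of each group's mean CPM over the mean of the 6 groups (y axis) by group (x axis) for Egln3 and Pfkfb3 (thick black) and the 5 genes nearest to each (thin lines). The genes near Egln3 peak with it in R-Scm 12 h, and those near Pfkfb3 follow it less closely.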

How the data were processed

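MEFs were profiled by paired-end RNA-seq after RNA extraction with the RNeasy mini kit and library preparation with the mRNA-seq kit from ABclonal. Per the study's methods, reads were aligned with HISAT2 to GRCm38. The deposited values are raw counts per gene in each of 18 libraries, made by the authors, with no normalization. The counting tool, its strand setting and its treatment of reads with several matches are not given in the sources used here.

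The counts were scaled by TMM (factors 0.963 to 1.03) and filtered with filterByExpr. All 18 libraries entered 1 fit with a term per group in edgeR 4.0.16 (quasi-likelihood, robust, R 4.3.3), p-values were adjusted by Benjamini-Hochberg over 15381 genes, and a DEG had an adjusted p under 0.05 and a log2 fold change beyond 0.58, the study's thresholds. The scripts were first tested on simulated data. CPM are effective-library values. Groups were read from the sample labels. DESeq2 1.42.0, RLE scaling, other filters, the compared groups alone, adjusted p alone, a replicate block by title number and, added after seeing the data, by column number, counts summed with copies and fits without each library were the alternatives. Copies were found by BLAST of transcripts in GENCODE M21 (GRCm38), in which 55227 of 55487 gene identifiers were found, and upstream sequences came from RefSeq (GRCm38.p6), in which 10 of 10 genes matched.

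The 10 genes and the gene lists were chosen with earlier results of these data known. The text names all 10 genes, every listed gene that was a DEG, and the 5 genes nearest in pattern to the 2 genes with the widest range of group means. Eno2, Arrdc3, Lox, Bhlhe40, Gapdh, Pkm and the genes named in passing as near a threshold were chosen after their values were seen. No pairing by replicate number was clear. Deviations of same-numbered libraries from their group means correlated at -0.196 to 0.346 (median -0.019). Those of different-numbered libraries correlated at -0.269 to 0.212 (median 0.002). These ranges cannot exclude a weak pairing. The numbers in the deposited count columns differ from those in the titles in 3 of 6 groups (6 of 18 libraries), and by column number the correlations were -0.208 to 0.165.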

Additional observations from a re-analysis of the deposited data

Results flagged for a closer look

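The fold changes of the 2 opposite exchanges differed, by the interaction term of the edgeR fit, for 4 genes. They are not among the 10 but belong to the lists around them. Ndrg1 and Ddit4 were among 18 tested HIF targets, Klf10 among 6 tested glucose-sensing genes and Col3a1 among 6 fibroblast markers. Over all genes tested, 2.03% were DEGs in this difference at 12 h and 1.37% at 24 h. Values are the log2 fold change of R-Scm against Rcm minus that of S-Rcm against Scm. A gene that moves equally far in opposite directions in the exchanges, following the serum, therefore also gets a large value. Ndrg1 differed by 0.66 at 12 h (SE 0.13, adjusted p = 0.00956, edgeR) and by 0.77 at 24 h (SE 0.13, adjusted p = 0.00419, edgeR), and passed in 12 of 12 fits without 1 library at both times. Its fold changes in R-Scm and S-Rcm were -0.36 and -1.02 at 12 h and 0.28 and -0.49 at 24 h. Ddit4 differed by -1.10 at 12 h (SE 0.25, adjusted p = 0.0264, edgeR), from -0.76 in R-Scm and 0.35 in S-Rcm. Klf10 differed by 1.01 at 24 h (SE 0.24, adjusted p = 0.0494, edgeR), from 0.37 in R-Scm and -0.64 in S-Rcm. The collagen gene Col3a1, whose log2 fold change in Rcm against Scm was 1.5 (adjusted p = 0.0271, edgeR), was called there in 1 of 6 fits without 1 library (adjusted p 0.0462 to 0.113, edgeR) and was not called with no filter on low counts (0.0855). It differed by -2.05 at 12 h (SE 0.47, adjusted p = 0.0345, edgeR) and by -2.15 at 24 h (SE 0.47, adjusted p = 0.038, edgeR). None of the 10 genes passed this test of the difference with all libraries included. Leaving out 1 library at a time, Ddit4 passed at 12 h in 3 of 12 fits, Klf10 at 24 h in 2 of 12, and Col3a1 in 0 of 12 at 12 h and 2 of 12 at 24 h.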

How the results depend on the processing

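The number of DEGs among the 10 genes was 1 in R-Scm 12 h against Rcm and 0 in the other 8 planned comparisons. In R-Scm 12 h against Rcm it was 0 when the compared groups were fitted alone (adjusted p of Egln3 = 0.123, edgeR), 0 with a replicate block by the numbers of the count columns, added after seeing the data (0.74, adjusted p = 0.0583, edgeR), and 1 under the other 7 alternatives (adjusted p from 0.000144), and 0 to 1 without single libraries (0 without R-Scm 12 h replicate 3). It was 0 to 1 without single libraries in R-Scm 24 h against Rcm, in R-Scm 24 h against R-Scm 12 h and in the difference at 24 h, each time 1 only without R-Scm 24 h replicate 1 (Hk2, Vegfa and Hk2), and with DESeq2 it was 1 from R-Scm 12 h to 24 h (Egln3, -0.62, adjusted p = 0.0391). For the added mean of both exchanges at 12 h it was 1 in all 9 alternatives and 0 to 1 without single libraries (0 without R-Scm 12 h replicate 3). The causes were not tested. Of the 37 pairs of gene and comparison among the 10 genes that were called, had an unadjusted p under 0.05 or did not overlap, none changed sign. Of the other 73 pairs, 29 changed sign in at least 1 alternative, the largest of them 0.30 in size, and 0 were called anywhere. A replicate block by the title numbers changed no count of DEGs among the 10 genes and ended the calls of Adm (adjusted p = 0.0543) and Klf10 (adjusted p = 0.0667, both edgeR). The block by column numbers also ended the calls of Vegfc (0.0693), Pdgfrb (0.0874), Col3a1 in the difference at 12 h (0.0707) and Klf10 (0.0659, all edgeR). By title number, 0 of 18 libraries correlated best with the same-numbered library in every other group at once. Unpaired libraries would seldom meet that rule, so the 0 does not show that pairing is absent. Without R-Scm 24 h replicate 1 the DEGs over all genes in R-Scm 24 h against Rcm numbered 501 rather than 58. For Pfkfb3 counting error alone gave a coefficient of variation of 10.2% beside 31.2% within groups, and for Arrdc4 10.6% beside 16.5%.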
